A study of Mus musculus with 5 samples.

Results

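The proximal tubule is the first segment of the nephron behind the glomerular filter, where the kidney takes back most of the filtered glucose, phosphate, amino acids and protein and secretes organic anions. Its cells carry an apical brush border of microvilli, a dense endocytic apparatus below it and a metabolism rich in mitochondria. The 9 genes described here, Miox, Slc34a1, Slc5a2, Slc22a6, Lrp2, Cubn, Kap, Calml4 and Dnajc12, were chosen because earlier results of these arrays showed kidney transcripts at high levels in a wild-type lung pool. Every probe set that the platform annotation maps to one of them and to no other gene was taken, which gave 14 probe sets of 22626 in the table and 9 genes of 12393. No probe set with several genes named any of them. They were thus selected on their intensities in the wild-type pool, which are described below without a test.

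The arrays held RNA of whole mouse lung, with 1 array of pooled RNA for each of 5 conditions. The hypoxic pool was RNA of FVB/N mice, 8 weeks old, kept in hypoxia for 4 weeks, and had a right ventricular pressure of 50 ± 8 mmHg. The induced pool came from SM22-tet-BMPR2delx4+ mice on doxycycline, in which the smooth muscle promoter SM22 drives a doxycycline-dependent mutant of the bone morphogenetic protein receptor BMPR2, also at 50 ± 8 mmHg. Pools at 30 ± 3 mmHg were SM22-rtTA mice on doxycycline, which carry the activator, SM22-tet-BMPR2delx4+ mice without doxycycline (the uninduced pool) and wild-type FVB/N mice aged 8 weeks. The 3 transgenic titles give 8 weeks without saying whether this is an age or a time on treatment. The kind of error given with the pressures, the number of animals in a pool and their sexes are not stated. With 1 array per condition there is no spread between replicates, so no difference below has a test, and the number of arrays limits the precision.

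Values are scaled intensities in arbitrary units: deposited intensities shifted on the log2 scale so that the 5 arrays share a median over well-expressed probe sets. A noise floor was set at 276, the median of all scaled values. Values under it are printed as measured, but they have no order, and a ratio with a pool at or under the floor is a bound written "at least". A gene above the floor in at least 1 pool is called measured, which holds for 8590 genes and for all 9 described here. For a gene with several probe sets, the one with the highest mean log2 value stands for the gene in counts over genes. A difference of at least 2-fold, with the higher pool above the floor, is called. Summed levels and medians have values under the floor raised to it, so a median over genes that includes bounds could be lower. Intensities of different probe sets are not compared with each other, except in 1 measure of the likeness of profiles.

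The wild-type pool stood apart from the other 4 pools. In all, 337 of 8590 measured genes, 3.92%, were at least 2-fold lower in each of the other 4 pools than in wild type. Lung transcripts were present in every pool. All 14 listed lung markers were measured, and their summed level was 86376 in the hypoxic, 72621 in the induced, 83853 in the SM22-rtTA, 85426 in the uninduced and 82457 in the wild-type pool. None of these 14 was at least 2-fold lower in each of the other 4 pools than in wild type. Napsa came nearest, at 3163 in the hypoxic, 1452 in the induced, 3549 in the SM22-rtTA and 2936 in the uninduced pool, against 7082. It missed 2-fold in the SM22-rtTA pool alone, at 1.995-fold lower.

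The stretch of 250 bases before the annotated start was available for 7 of the 9 genes from RefSeq on GRCm38.p6. Transcription of many proximal tubule genes is known to depend on HNF1 and HNF4 factors, and Kap is a classical androgen-responsive kidney gene. Both strands were searched for GTTAAT (part of the HNF1 motif), CAAAGTC (part of the HNF4 motif), AGAACA (part of the androgen receptor motif) and TATAAA (the TATA box), and no matches overlapped. The promoters below are the ones with a match, printed 5′ to 3′ with matches in either orientation in capitals.
Miox (chr15:89334223-89334472, + strand): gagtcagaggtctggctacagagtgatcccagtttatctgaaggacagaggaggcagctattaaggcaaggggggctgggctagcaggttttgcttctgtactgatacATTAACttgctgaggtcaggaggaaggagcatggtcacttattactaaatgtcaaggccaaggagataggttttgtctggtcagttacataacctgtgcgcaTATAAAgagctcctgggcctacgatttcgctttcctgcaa
Slc34a1 (chr13:55399398-55399647, + strand): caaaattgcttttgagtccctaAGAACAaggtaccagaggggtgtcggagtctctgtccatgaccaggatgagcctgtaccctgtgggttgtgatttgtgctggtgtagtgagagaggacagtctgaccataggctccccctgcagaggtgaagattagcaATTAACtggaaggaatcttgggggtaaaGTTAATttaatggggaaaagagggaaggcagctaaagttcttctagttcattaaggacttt
Slc22a6 (chr19:8617746-8617995, + strand): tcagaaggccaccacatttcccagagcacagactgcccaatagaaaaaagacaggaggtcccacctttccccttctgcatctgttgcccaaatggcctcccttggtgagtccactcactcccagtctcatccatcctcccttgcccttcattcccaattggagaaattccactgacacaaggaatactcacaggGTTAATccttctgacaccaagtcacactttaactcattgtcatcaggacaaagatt
Kap (chr6:133853668-133853917, - strand): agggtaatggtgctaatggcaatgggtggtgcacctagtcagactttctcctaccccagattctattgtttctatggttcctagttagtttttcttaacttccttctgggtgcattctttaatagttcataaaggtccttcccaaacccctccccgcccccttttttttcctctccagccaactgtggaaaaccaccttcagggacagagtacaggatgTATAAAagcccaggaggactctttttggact

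GTTAAT occurred in 3 of the 7 promoters, those of Miox, Slc34a1 and Slc22a6, against 6.43% of 32851 RefSeq promoters of the same length. Counted by the leftmost base, the matches lay 142 bases before the start in Miox, 89 and 61 in Slc34a1 and 56 in Slc22a6. CAAAGTC occurred in 0 of 7, against 3.84% of all promoters. AGAACA occurred in 1 of 7, Slc34a1, against 16.1%, and not in the Kap window. TATAAA occurred in Kap, 31 bases before the start, and in Miox, 40 bases before it, against 12.4% of all promoters. These matches describe the letters of the windows and say nothing of binding in these samples.

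All 14 probe sets were above the floor in wild type, and 13 of 14 were at least 2-fold lower in each of the other 4 pools, where 3.81% of 12769 measured probe sets were. By gene the count was 8 of 9 in each of the 4 pools against wild type. Over all measured genes, the share at least 2-fold lower than in wild type was 6.55% in the hypoxic, 5.8% in the induced, 8.42% in the SM22-rtTA and 7.66% in the uninduced pool. Since the wild-type level chose the genes, nothing is read from these counts. The median log2 ratio of the 9 genes to wild type was -2.85 in the hypoxic, -2.80 in the induced, -3.04 in the SM22-rtTA and -2.85 in the uninduced pool, where the medians of all measured genes were 0.03, 0.00, 0.00 and 0.00. Most of the 9 ratios are bounds, which entered at the bound, so these medians are upper limits.

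**Figure D1:**
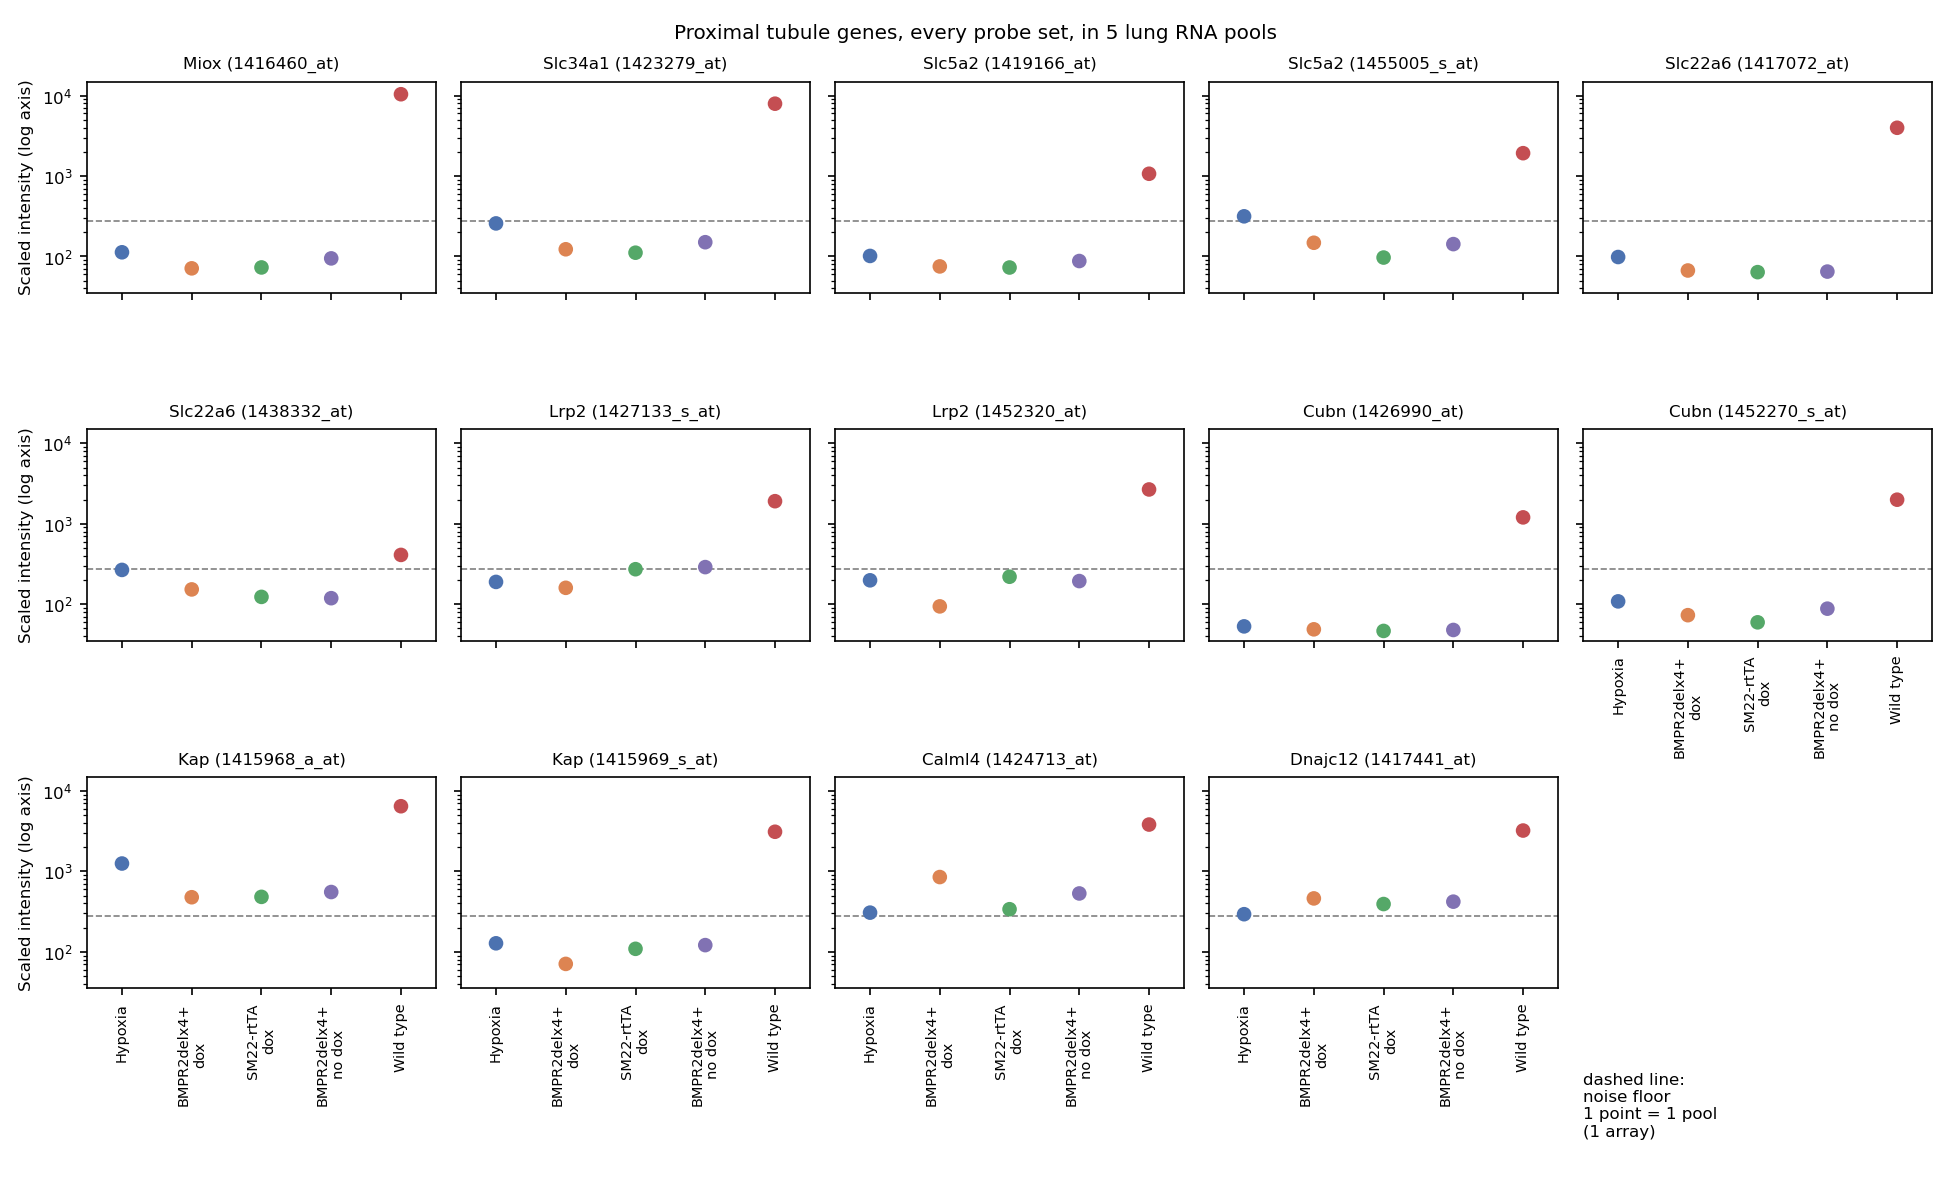
Scaled intensity (log axis, arbitrary units) of every probe set of the 9 proximal tubule genes, 1 point for each of 5 pools; the dashed line is the noise floor at 276. The wild-type point is the highest in all 14 panels, and 9 probe sets lie at or under the floor in all 4 other pools.

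Slc34a1, Slc5a2 and Slc22a6 encode transporters of the apical and basolateral membranes. Slc34a1, the sodium-phosphate cotransporter that reclaims filtered phosphate, was at 258 in the hypoxic, 123 in the induced, 111 in the SM22-rtTA and 150 in the uninduced pool, against 7945 in wild type. All 4 values lay under the floor, so Slc34a1 was at least 28.8-fold lower in each of these pools. Its paralog Slc34a2, the phosphate transporter of alveolar type 2 cells, was at 7279, 4485, 7127 and 6617 in the same pools, against 5644 in wild type. Slc34a2 was thus not at least 2-fold lower in any of these pools than in wild type, whereas Slc34a1 was so in all 4.

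Slc5a2 encodes the high-capacity sodium-glucose cotransporter SGLT2 and had 2 probe sets. The first (1455005_s_at) was at 316 in the hypoxic, 148 in the induced, 97 in the SM22-rtTA and 142 in the uninduced pool, against 1925 in wild type. The second (1419166_at) was at 101, 75, 73 and 88, against 1068 in wild type. Both were thus high in wild type alone, the first being 6.10-fold lower in the hypoxic pool and at least 6.97-fold lower in the other 3, and the second at least 3.87-fold lower in each of the 4.

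Slc22a6 encodes the basolateral organic anion transporter OAT1, and its 2 probe sets disagreed in size. One (1417072_at) was at 98 in the hypoxic, 67 in the induced, 64 in the SM22-rtTA and 65 in the uninduced pool, against 3986 in wild type, at least 14.4-fold lower in each. The other (1438332_at) was at 266, 152, 123 and 119, against 410 in wild type, and its bound of at least 1.48-fold lower did not reach 2-fold. This dimmer contrast comes from the probe set with the higher mean log2 value, which is why the count by gene is 8 and not 9.

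The endocytic receptors megalin (Lrp2) and cubilin (Cubn) together take up filtered protein. Lrp2 was at 189 in the hypoxic, 160 in the induced, 272 in the SM22-rtTA and 289 in the uninduced pool, against 1908 in wild type, on 1427133_s_at. On 1452320_at it was at 198, 94, 219 and 194, against 2670 in wild type. The first probe set of Lrp2 exceeded the floor in the uninduced pool by little, where it was 6.60-fold lower than in wild type. The second was at least 9.66-fold lower in each of the 4.

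Both Cubn probe sets lay under the floor in the 4 pools other than wild type. Probe set 1426990_at stood at the lowest value the deposited table holds, 50, in all 4 of these pools, which after scaling is 53 in the hypoxic, 49 in the induced, 46 in the SM22-rtTA and 48 in the uninduced pool, against 1200 in wild type. The other Cubn probe set (1452270_s_at) was at 108, 73, 59 and 88, against 1991 in wild type, at least 7.21-fold lower in each.

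Miox, the oxygenase that opens the myo-inositol ring in the first step of inositol breakdown, was, with this scaling and floor, the gene of all 8590 measured whose highest other pool lay furthest under wild type. It was at 113 in the hypoxic, 71 in the induced, 73 in the SM22-rtTA and 95 in the uninduced pool, against 10418 in wild type, at least 37.7-fold lower in each. Ranked by how far the highest other pool lay under wild type, Miox was at place 1 and Slc34a1 at place 6. Cubn followed at 55, Dnajc12 at 61, Lrp2 at 65, Slc5a2 at 70, Kap at 94, Calml4 at 119 and Slc22a6 at 618. The place of Slc22a6 rests on 1438332_at, and with 1417072_at in its stead it would be 14. The order of these places depends on the floor, since a bound caps the ratio of a gene whose other pools lie under it.

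**Figure D2:**
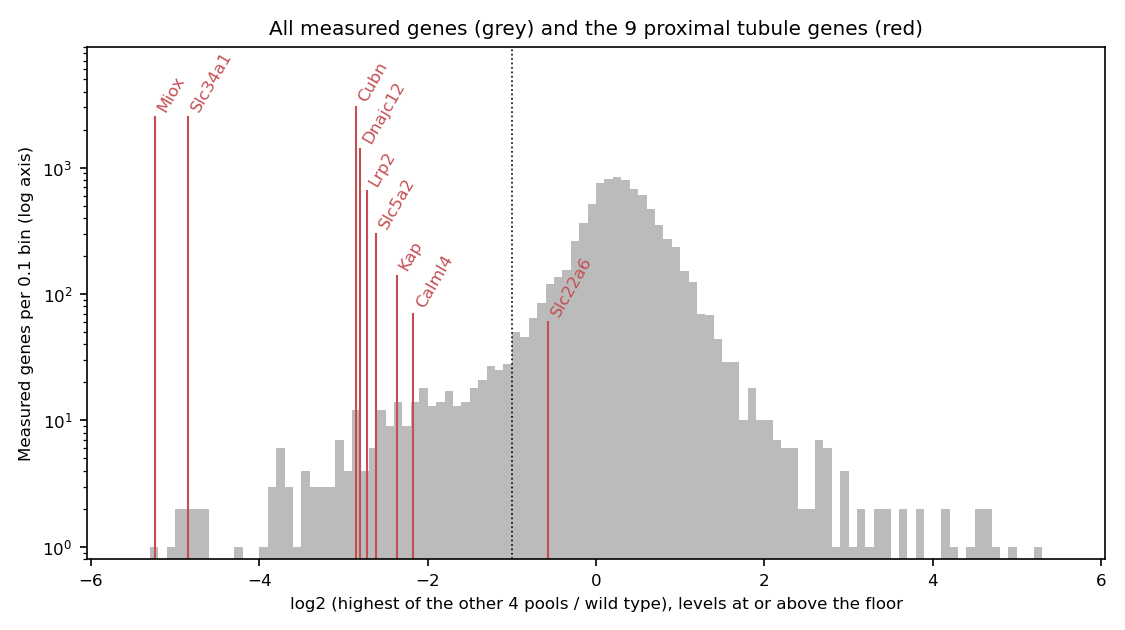
Number of measured genes (log axis) by the log2 ratio of the highest of the other 4 pools to wild type, with levels under the floor raised to it; red lines mark the 9 proximal tubule genes and the dotted line a 2-fold difference. Miox lies at the far left end and 8 of the 9 lie left of the dotted line, with Slc22a6 to its right.

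Kap, the kidney androgen-regulated protein of the mouse, differed between its 2 probe sets in the pools other than wild type. On 1415968_a_at it was at 1254 in the hypoxic, 478 in the induced, 483 in the SM22-rtTA and 555 in the uninduced pool, against 6472 in wild type. On 1415969_s_at it was at 128, 71, 109 and 121, all under the floor, against 3115 in wild type, at least 11.3-fold lower in each. By the array's naming, probes of an _s_at set can match more than 1 transcript, and those of an _a_at set match alternative transcripts of 1 gene. The first probe set gave a 5.16-fold lower level in the hypoxic pool and 13.5-fold, 13.4-fold and 11.7-fold lower levels in the induced, SM22-rtTA and uninduced pools.

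Transcripts that differ between the sexes also varied among the pools. Xist, made from the inactive X chromosome, was at 1403 in the hypoxic, 1845 in the induced, 98 in the SM22-rtTA and 689 in the uninduced pool, against 122 in wild type. The Y-linked Eif2s3y was at 53 in the hypoxic, 285 in the induced, 394 in the SM22-rtTA and 366 in the uninduced pool, against 394 in wild type. Of 6 other genes that androgen is known to raise in mouse kidney, all measured, 3 were at least 2-fold lower in each of the other 4 pools than in wild type, namely Cyp2e1, Odc1 and Slco1a1. Odc1, ornithine decarboxylase, was at 946, 1416, 1169 and 1129, against 5119 in wild type. The androgen-responsive lysosomal enzyme Gusb was at 423, 421, 537 and 516, against 504 in wild type, and Cyp4b1, a P450 of both lung and kidney, at 4128, 4870, 5652 and 6087, against 10064. The part of sex in the level of Kap was not tested.

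Calml4 and Dnajc12 were the 2 genes whose only probe set was above the floor in every pool. Calml4, a calmodulin-like light chain of the myosin that anchors brush border microvilli to each other, was at 307 in the hypoxic, 852 in the induced, 339 in the SM22-rtTA and 532 in the uninduced pool, against 3829 in wild type. It was 12.5-fold lower in the hypoxic and 4.50-fold lower in the induced pool. Dnajc12, a J-domain co-chaperone of the aromatic amino acid hydroxylases, was at 294, 462, 393 and 421, against 3226 in wild type, 11.0-fold lower in the hypoxic and 6.99-fold lower in the induced pool. In whole-tissue RNA, a difference in cells of a type and one in RNA per cell cannot be told apart for any of these genes. Which cells or tissue the transcripts in the wild-type pool came from was not tested.

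Comparisons among the 4 pools other than wild type do not use the array that chose the genes. With this floor, a gene at or under it in both pools compared could not be called. Miox, Slc34a1, Slc22a6 and Cubn were above it in wild type alone, so the counts of 0 below say nothing of them. Slc5a2 exceeded it in the hypoxic pool alone of these 4 and Lrp2 in the uninduced pool alone. Both did so by less than 2-fold, so neither could be called in any of these comparisons. Only Kap, Calml4 and Dnajc12 could be called, and each count of the 9 genes below rests on them. The shares of measured genes beside these counts are therefore no like-for-like reference. Induced against uninduced mice, the comparison of the mutant receptor within 1 genotype, gave 0 of 9 genes called higher, where 1.69% of measured genes were, and 0 called lower, where 0.466% were. Calml4 was 1.60-fold higher in the induced pool (log2 ratio 0.68), the widest difference of the 9 in that comparison. Against SM22-rtTA on doxycycline, Calml4 was 2.51-fold higher in the induced pool, the 1 of 9 called higher, against 2.79% of measured genes, and 0 of 9 were called lower, against 1.44%. The induced pool was also 2.77-fold above the hypoxic pool in Calml4, where 2.67% of genes were called higher. Both Calml4 calls depend on the floor: with it at the 70th percentile each log2 ratio was 0.62 and neither was called. The induced pool read highest in Calml4 of these 4, with the uninduced pool second.

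Of Kap, Calml4 and Dnajc12, the hypoxic pool was called higher in Kap alone, 2.60-fold over SM22-rtTA and 2.26-fold over the uninduced pool. In each comparison 3.97% of measured genes were called higher. The share called lower was 0.733% and 1.04%, with 0 of 9 genes. Slc5a2, at 316 in the hypoxic pool and under the floor in the pools it was compared with, could not be called. Kap was likewise lower in the induced than in the hypoxic pool (log2 ratio -1.39), the 1 of 9 called there against 2.41% of genes. These Kap calls rest on 1415968_a_at. The other Kap probe set lay under the floor in all 4 pools, and with the mean of both the log2 ratio over SM22-rtTA was 0.53 and no call was made. SM22-rtTA against the uninduced pool gave 0 of 9 in either direction, against 0.489% of genes higher and 0.745% lower.

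Dnajc12 varied least of the 3 genes seen in every pool, by 1.57-fold between its highest level in the induced and its lowest in the hypoxic pool. Calml4 and Dnajc12 shared this order, with induced first, then uninduced, SM22-rtTA and hypoxic, and neighbouring pools differed by 1.07-fold to 1.60-fold. Without replicates no neighbours in that order can be called apart. With scaling and floor taken from the 4 pools without wild type, every count among them was as given here.

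**Figure D3:**
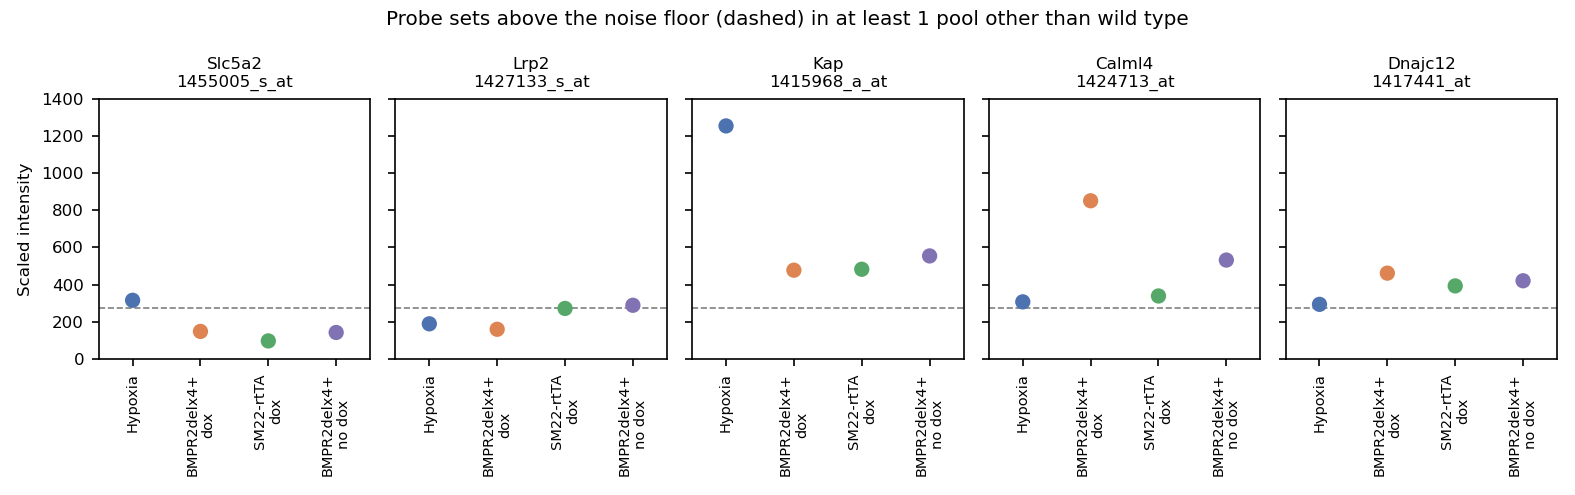
Scaled intensity (linear axis from 0, arbitrary units) of the 5 probe sets above the noise floor (dashed) in at least 1 pool other than wild type, 1 point per pool. Kap on 1415968_a_at is highest in the hypoxic pool at 1254, and Calml4 is highest in the induced pool at 852.

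Under the floor, the hypoxic pool often read highest. Of the 9 probe sets at or under the floor in all 4 pools, 1 (Cubn on 1426990_at) was at the deposited limit in each. Of the other 8, 7 had the hypoxic scaled value on top. Over 6998 named probe sets of the same kind, likewise without those at the limit in all 4 pools, 52.7% did. The scaling raised the hypoxic array (log2 shift 0.08) and lowered the induced, SM22-rtTA and uninduced arrays, so this order depends in part on it. As deposited, Kap on 1415969_s_at was at 121 in the hypoxic and 127 in the uninduced pool. The hypoxic array had 9.85% of its probe sets at the deposited limit, against 12.0% in SM22-rtTA and 12.5% in the uninduced pool. The shares of the induced and wild-type arrays lay between those of the hypoxic and SM22-rtTA arrays. Whether the share at the limit bears on the order under the floor was not tested, and values under the floor say nothing of the single genes.

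Other genes of the proximal tubule were taken from 5 lists of 76 genes, of which 63 were on the array and 56 were measured. Of these 56, 39 were at least 2-fold lower in each of the other 4 pools than in wild type, as were 3.92% of all measured genes. Their median log2 ratio to wild type was -2.09 in the hypoxic, -2.47 in the induced, -2.38 in the SM22-rtTA and -2.44 in the uninduced pool, again with bounds entered as such. The lists were written with earlier results known, so these counts are a description and not independent of the choice of the 9 genes.

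Metabolic enzymes gave the highest share, 14 of 15 measured. Fructose bisphosphatase Fbp1, a gluconeogenic enzyme, was at 235 in the hypoxic, 159 in the induced, 204 in the SM22-rtTA and 137 in the uninduced pool, against 7648 in wild type. The aminoacylase Acy3 was at 74, 111, 89 and 123, against 6768 in wild type. The P450 Cyp2e1 was above the floor everywhere, at 1129, 446, 502 and 1238, against 8690. Hpd, which acts in tyrosine breakdown, was the exception at 741, 510, 510 and 360, against 859.

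Organic ion transporters, the wider family around Slc22a6, were lower in 8 of 10 measured. Slc22a18 was at 336 in the hypoxic, 366 in the induced, 314 in the SM22-rtTA and 355 in the uninduced pool, against 4322 in wild type. Slco1a6 was at 53, 49, 46 and 48, against 3693 in wild type, and the carnitine transporter Slc22a5 at 440, 813, 589 and 821, against 1780. Slc22a8, the organic anion transporter OAT3 and a close relative of Slc22a6, was at 588, 214, 146 and 281, against 2282. Slc22a19 was the one whose highest other pool stood highest relative to wild type, at 500, 257, 248 and 210, against 547.

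Solute transporters were lower in 10 of 17 measured, with the urate and phosphate transporter Slc17a3 at 353 in the hypoxic, 226 in the induced, 170 in the SM22-rtTA and 193 in the uninduced pool, against 3418 in wild type. Genes of endocytosis, which serve Lrp2 and Cubn, were lower in 4 of 5. The adaptor Dab2 was at 756, 568, 937 and 595, against 3303 in wild type, and the megalin chaperone Lrpap1 at 1859, 1788, 2055 and 2203, against 4621. The call of Lrpap1 rests on 1436609_a_at, and its other probe sets did not reach 2-fold in every pool. Probe set 1426697_a_at was at 370, 389, 541 and 591, against 560 in wild type. Lrpap1 on 1452148_at was at 694, 568, 709 and 776, against 917, and on 1426696_at at 852, 688, 1299 and 1102, against 2493. Clcn5, the endosomal chloride exchanger, was at 1177, 796, 625 and 654, against 1737. It was at least 2-fold lower in the induced, SM22-rtTA and uninduced pools (log2 ratios -1.13, -1.48 and -1.41) and not in the hypoxic pool (log2 ratio -0.56). Apical peptidases and scaffolds were lower in 3 of 9, where Enpep was at 2595, 1779, 2227 and 2498, against 2555 in wild type.

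**Figure D4:**
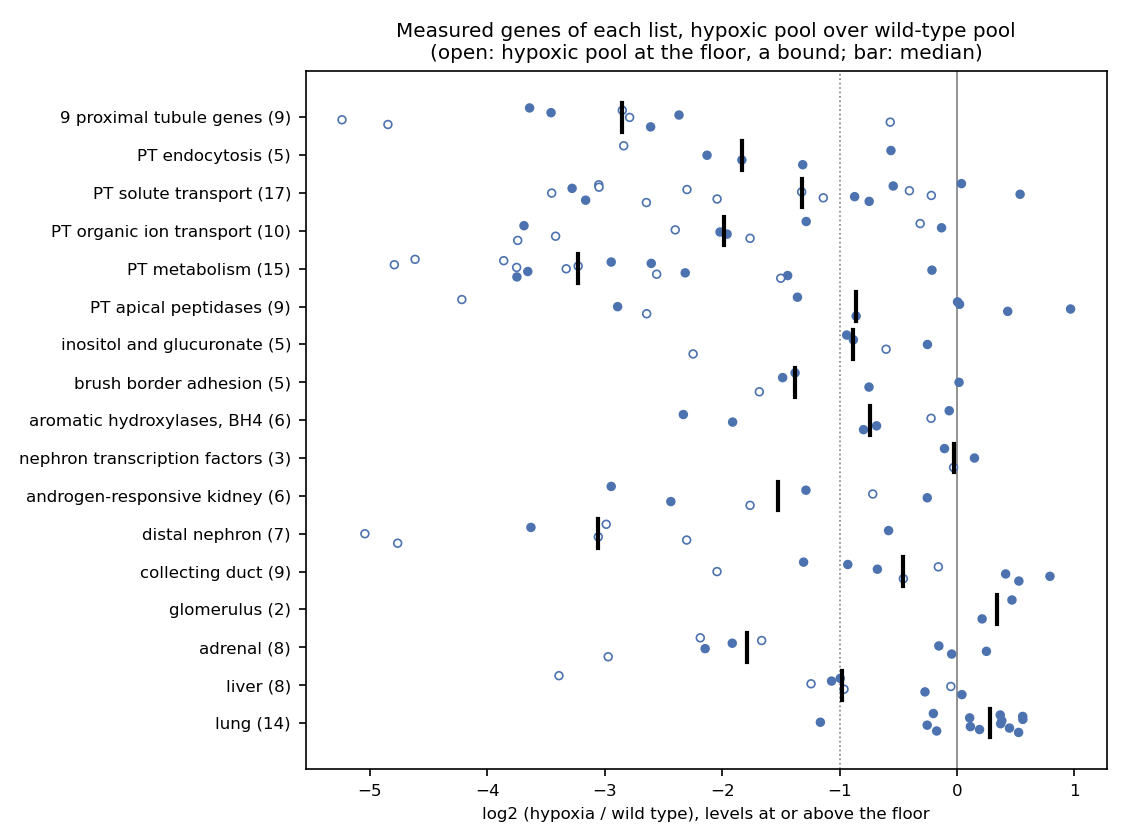
Log2 ratio of the hypoxic over the wild-type pool for the measured genes of each list (number in brackets), 1 point per gene, with the list median as a bar; open points are bounds, with the hypoxic pool at the floor, and enter the median at the bound. The 9 proximal tubule genes have a median of -2.85, the distal nephron list -3.05 and the lung list 0.28.

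Partners of single members were also followed. In the inositol and glucuronate pathway around Miox, 1 of 5 measured genes was at least 2-fold lower in each of the other 4 pools, the xylulose kinase Xylb. Akr1a1, which reduces the glucuronate that Miox makes, was at 5844 in the hypoxic, 5117 in the induced, 5054 in the SM22-rtTA and 5173 in the uninduced pool, against 11204 in wild type. It was at least 2-fold lower in 3 of these pools and 1.92-fold lower in the hypoxic pool. That is the reading of 1430123_a_at, and the other 3 of its 4 probe sets were at least 2-fold lower in all 4 pools. Of these, 1451035_a_at was at 3415, 3196, 3716 and 3296, against 9557 in wild type. Among brush border partners of Calml4, 2 of 5 were called. The protocadherin-like Cdhr5 was at 645, 182, 285 and 304, against 1676 in wild type, while Myo7b, the myosin that Calml4 serves, was at 498, 178, 203 and 172, against 492. Myo7b in the hypoxic pool thus matched wild type, unlike Calml4.

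Of the aromatic amino acid hydroxylases that Dnajc12 serves and the enzymes of their biopterin cofactor, 2 of 6 measured were called, both of the cofactor cycle. Pcbd1 was at 534 in the hypoxic, 356 in the induced, 322 in the SM22-rtTA and 293 in the uninduced pool, against 2684 in wild type. Qdpr was at 1152, 1890, 1525 and 1318, against 4331. Of the 3 measured nephron transcription factors, 0 were at least 2-fold lower in each of the other 4 pools by the probe set that stands for the gene. For Hnf4a this probe set (1450447_at) was at 878, 505, 677 and 442, against 945 in wild type, and was at least 2-fold lower in the uninduced pool alone (log2 ratio -1.09). The other 3 of its 4 probe sets were at least 2-fold lower in all 4 pools. Of these, 1421983_s_at was at 265, 106, 136 and 121, against 1501 in wild type. Probe set 1427001_s_at was at 352, 220, 194 and 234, against 1322, and 1427000_at at 53, 49, 46 and 48, against 1342. The probe sets of Hnf4a therefore disagreed, and the count of 0 rests on the choice among them.

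The 10 genes whose profile over the 5 pools lay nearest to the median profile of the 9 genes, by Euclidean distance of floored log2 levels, were Glyat, Slc3a1, Ak4, Slc47a1, Spink1, Alb, Slco1a6, Pter, Gatm and Hao2. Their distances ran from 0.058 for Glyat to 0.22 for Hao2. Glyat, a mitochondrial glycine acyltransferase, was at 288 in the hypoxic, 169 in the induced, 106 in the SM22-rtTA and 48 in the uninduced pool, against 3217 in wild type. Alb, albumin, was at 256, 220, 88 and 222, against 2894. The median profile lies at the floor in all 4 pools other than wild type, so the distance mainly ranks how near a wild-type intensity came to 3226. It is a description only, since the same array chose the 9 genes.

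Markers of other cell types were set beside the proximal tubule genes, and their part in the result was not tested. Sums in this paragraph have values under the floor raised to it, so a sum that includes such values is an upper limit. Distal nephron markers were at least 2-fold lower in each of the other 4 pools in 6 of 7 measured. Their summed levels were 2093 in the hypoxic, 1985 in the induced, 1934 in the SM22-rtTA and 1934 in the uninduced pool, against 27297 in wild type. All 7 lay under the floor in the SM22-rtTA and uninduced pools. Collecting duct markers were at least 2-fold lower in each of the other 4 pools in 2 of 9, Aqp2 and Hsd11b2, with sums of 5497, 4951, 4671 and 5266, against 6694. Aqp2 was at 529, 332, 169 and 353, against 1307 in wild type, and Hsd11b2 at 214, 145, 145 and 161, against 1139. Of the 9, 6 were highest in wild type, while the sodium channel subunits Scnn1b and Scnn1g were lowest there. Scnn1b was at 949, 1518, 1142 and 1506, against 712, and Scnn1g at 1613, 1328, 1527 and 1615, against 931. Podocyte markers were so in 0 of 2, Podxl and Synpo, with sums of 3534, 3942, 3778 and 4281, against 2602. Most of each sum came from Podxl, at 3190, 3319, 3117 and 3437, against 2306 in wild type. Nphs1 and Wt1 lay under the floor in all 5 pools. Adrenal markers were so in 5 of 8, with sums of 4272, 3164, 2566 and 2985, against 10622. Liver markers were so in 3 of 8, with sums of 3151, 2547, 2599 and 2388, against 7739. Apoa1 (1.99-fold) and Fga (at least 1.95-fold) fell just short. The count for Ttr rests on 1451580_a_at, at 445, 194, 163 and 170, against 432 in wild type. Its 1454608_x_at was at 91, 60, 57 and 70, against 2050, and 1455913_x_at at 53, 49, 46 and 48, against 1118.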

How the data were processed

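Lung RNA of 5 pools was measured on 1 oligonucleotide array each, with several animals pooled per the labels. The deposited values are linear intensities per probe set. How the authors summarised, background-corrected or scaled them is not given in the sources used here. No deposited intensity was under 50.

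Log2 intensities were shifted to a shared median over 9047 probe sets at or above the median of every array, by 0.08 (hypoxia), -0.04 (induced), -0.11 (SM22-rtTA), -0.07 (uninduced) and 0.13 (wild type). The floor was the 50th percentile of all scaled values. Gene names came from the platform's annotation table and were brought up to date by gene ID with RefSeq (GRCm38.p6): 20380 had 1 gene (20351 matched by ID), 691 several and 1555 none. Counts use 2-fold. The calling was tested on simulated data with noise of a chosen size. With 1 array per condition the real spread is unknown, so that test does not measure the error of the calls. Python 3.11.15, pandas 2.3.3, numpy 2.4.6 and matplotlib 3.10.9 were used.

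Members and lists were chosen with earlier results of these data known. The rule for named genes was all probe sets of the members and, from each list, the 3 with the highest mean intensity. To these it added the gene whose highest other pool stood highest relative to wild type. Not all genes so picked are printed, and the distal nephron and adrenal lists are given as counts and sums. Slco1a1, Xylb, Nphs1, Scnn1b, Scnn1g, Hsd11b2, Napsa, Apoa1, Fga, Slc5a1, Slc26a1, Slc22a13 and Slc13a3 were named after their values were seen. So were single probe sets of Hnf4a, Akr1a1, Ttr, Slc4a4 and Lrpap1. Alternatives covered scaling, floor, pseudocount, fold and probe set choice.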

Additional observations from a re-analysis of the deposited data

Results flagged for a closer look

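Probe sets with no gene in the platform annotation were used in no comparison above. Of 725 such probe sets above the floor in at least 1 pool, 32 (4.41%) were at least 2-fold lower in each of the other 4 pools than in wild type, and 9 were at least 4-fold lower. The widest contrast, on 1420465_s_at, was 117 in the hypoxic, 133 in the induced, 229 in the SM22-rtTA and 202 in the uninduced pool, against 8504 in wild type. These were singled out as signal outside the named genes, and what they measure is not named here.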

How the results depend on the processing

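No call changed direction under any alternative, and 240 of 261 recomputed values of the counts and medians stayed on the same side of the 2-fold line or within 1.5 times. Of 280 recomputed ratios of single probe sets to wild type, 276 were below 0 and 262 were at least 2-fold lower; the ratios that did not reach 2-fold were those of Slc22a6 on 1438332_at and, with the floor at the 70th percentile, of Slc5a2 on 1419166_at (log2 -0.94). The count of genes at least 2-fold lower in each of the other 4 pools than in wild type was 7 with plain probe sets alone, which leave Kap out (8 genes), 9 with the mean of probe sets, the pseudocount of 100 or the probe set of highest mean intensity (the last chosen after the data were seen), and 8 otherwise. That of other proximal tubule genes was between 27 (4-fold) and 43 (1.5-fold). The remaining changes concern the 4 pools other than wild type, and the cause was not tested. With the floor at the 30th percentile, 3 genes were higher in hypoxia than in SM22-rtTA and 3 than in the uninduced pool, and 2 were lower in the induced than in the hypoxic pool; with the pseudocount, 2 were higher in hypoxia than in SM22-rtTA. With the floor at the 70th percentile, 0 were higher in the induced than in the SM22-rtTA or the hypoxic pool, Calml4 then having a log2 ratio of 0.62 to each. With the mean of probe sets or plain probe sets alone, 0 were higher in hypoxia than in SM22-rtTA or the uninduced pool and 0 lower in the induced than in the hypoxic pool. At 1.5-fold, 1 was higher in the induced than in the uninduced pool, 1 lower in hypoxia than in the uninduced pool, 2 higher in the induced than in the hypoxic pool and 1 lower in SM22-rtTA than in the uninduced pool. At 4-fold each of these comparisons gave 0. With values as deposited, the median log2 ratio to wild type of genes above the floor in all pools moved to 0.12 (hypoxia), 0.19 (induced), 0.23 (SM22-rtTA) and 0.26 (uninduced), and with quantile normalization to 0.15, 0.10, 0.11 and 0.17, while the medians of the 9 genes stayed between -2.82 and -2.67 in both. No paired analysis was possible because each condition has 1 array and the labels give no replicate numbers.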

Other observations

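Of the 56 measured proximal tubule genes outside the 9, 17 did not reach 2-fold against every other pool by the probe set that stands for the gene, as Slc22a6 did not. For 3 of the 17, Slc5a1, Slc26a1 and Slc22a13, all 4 other pools lay under the floor, so that their ratios are bounds and a larger contrast could not be seen. Slc26a1 was at 70 in the hypoxic, 49 in the induced, 46 in the SM22-rtTA and 48 in the uninduced pool, against 366 in wild type. The water channel Aqp1, which lung endothelium also makes, was at 7193 in the hypoxic, 5297 in the induced, 6188 in the SM22-rtTA and 6641 in the uninduced pool, against 7004 in wild type. The dipeptidase Dpep1 was at 1634, 1701, 1609 and 2094, against 1629, and the meprin subunit Mep1b at 972, 522, 398 and 352, against 497. The sodium-bicarbonate cotransporter Slc4a4 was at 2120, 863, 850 and 719, against 1460, and on another of its 4 probe sets (1452071_at) at 163, 169, 117 and 116, against 1323. Slc4a4 on 1450169_at was at 477, 250, 183 and 181, against 322, and on 1421225_a_at at 53, 49, 46 and 48, against 373. Slc13a3, the dicarboxylate transporter, was not counted as measured because the probe set of highest mean log2 value was under the floor, while 1416560_at was at 53, 49, 46 and 48, against 1591 in wild type.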
